A study of Arabis alpina with 23 samples.

Results

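The shoot apical meristem (SAM) of Arabis alpina was compared between 7 weeks and 4 weeks of cold. Arabis alpina is a perennial relative of Arabidopsis, and all plants were of the Pajares accession. The comparison was chosen by its labels alone and took the 3 SAM libraries of stage 4 (7 weeks at 4 °C) against the 3 of stage 3 (4 weeks at 4 °C), which are 6 of the 23 libraries of the series. The other libraries held SAM of plants grown for 4 weeks (stage 1) or 8 weeks (stage 2) without cold, and axillary buds (AB) at the same 4 stages. Seeds were stratified for 4 days, plants then grew in soil at 24 °C by day and 18 °C by night, and the cold was given with 16 h of light and 8 h of dark. Each SAM was taken with a single leaf primordium, and a biological replicate pooled 120 to 150 of them, per the labels. No plant age is given apart from the weeks of cold, so age and the length of the cold cannot be told apart.

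Arabis alpina flowers in response to prolonged cold, a process called vernalization. In Arabidopsis and its relatives, repressors such as FLC and its MAF relatives hold flowering back and are silenced during cold. Integrators such as SOC1 and FUL and the age-dependent SPL factors promote flowering in the apex. LFY and AP1 then give young primordia the identity of flowers, and the SEP, AP3 and PI genes, which encode MADS-box transcription factors, specify their organs. A gene symbol here comes from the description in the files, and that description can fit a related gene.

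Of 21414 genes tested, 1100 (5.14%) were higher and 865 (4.04%) were lower at stage 4, at an adjusted p under 0.05 in edgeR's quasi-likelihood test with Benjamini-Hochberg adjustment. This was 9.18% of the genes, against 24.3% in the preceding step of the apex from stage 2 to stage 3, which shares the stage 3 libraries, and 47.3% in the same step of the buds. The changes among called genes had a median size of 0.652 on the log2 scale, and 483 genes rose and 196 fell by at least 1 (3.17% of the genes). The libraries of the stages did not overlap for 30.0% of all genes tested and for 1919 of the 1965 called. Over all genes tested the median change was -0.005. On log2(TPM + 1) values tested with limma the split was 1221 higher and 595 lower. The stage 3 libraries held 12.2 to 18.2 megareads and the stage 4 libraries 18.3 to 26.2, so depth moved with the stage, and its part in the calls was not tested. The first principal component of the 6 libraries held 47.5% of the variance and ran from -41.08 to -36.23 in stage 3 and from 19.13 to 58.13 in stage 4. Among the 1100 genes that rose, stage 4 replicate 3 was the highest library for 571, replicate 2 for 388 and replicate 1 for 141. The number of genes called went from 1965 to 1054 without stage 3 replicate 1, 1149 without stage 3 replicate 2, 1206 without stage 4 replicate 2 and 1100 without stage 4 replicate 3.

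Below, levels are CPM, counts per megaread of the TMM-scaled library size, given for replicates 1, 2 and 3 in that order. Each change is the log2 difference of stage 4 minus stage 3 and is followed by its standard error from the edgeR fit, with 3 libraries a stage. Positions are those of the version 5 assembly in the deposited annotation.

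Flower identity genes rose in the apex, and several of them had been at or near 0 after 4 weeks of cold. AP1 (Aa_G283230, chromosome 2, 23713656 to 23717789), which gives floral meristems their identity, had 0 counts in all 3 stage 3 libraries and stood at 20.3, 29.9 and 51.3 CPM at stage 4. Against a floor of 3 counts over the stage 3 group, this was at least 509-fold higher (adjusted p = 0.000385). SEP4 (Aa_G675730, chromosome 5, 1786345 to 1788502), a cofactor of the floral organ genes, went from 0.278, 0.2 and 0.579 to 14.2, 15.7 and 28.8 CPM, a change of 5.83 ± 0.45 (adjusted p = 2.08e-05). LFY (Aa_G61540, chromosome 8, 46457059 to 46459751), the transcription factor that starts floral meristems and activates AP1 in Arabidopsis, was already present at stage 3 and rose further, from 24.2, 14.6 and 20.7 to 112, 133 and 166 CPM (2.78 ± 0.17, adjusted p = 1.27e-08). In each of these genes every stage 4 library lay above every stage 3 library, and stage 4 replicate 3 was the highest. For AP1 and SEP4 the rule for naming the largest rises required that the stages did not overlap. In such bulk samples, more cells of a type and more RNA per cell cannot be told apart.

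PI and AP3, the MADS-box genes that together specify petals and stamens, rose with a wide spread. PI (Aa_G68100) stood at 0.889, 0.865 and 2.23 CPM at stage 3 and at 9.85, 8.24 and 40.3 at stage 4 (3.91 ± 0.56, adjusted p = 0.000273). AP3 (Aa_G300500) had 0 counts at stage 3 and stood at 2.59, 6.87 and 43 CPM at stage 4, at least 263-fold higher (adjusted p = 0.049). Both were several times higher in stage 4 replicate 3 than in the other two libraries. A pair of genes described as SEP2 were also highest in stage 4 replicate 3. Aa_G383480 had 0 counts at stage 3 and 0.348, 0.824 and 5.3 CPM at stage 4, at least 32.4-fold higher (adjusted p = 0.031). Aa_G743960 had 3 counts at stage 3 and 404 at stage 4, a ratio of 97.6 with a 95% exact interval of 33.2 to 475 that covers counting error only (adjusted p = 0.0279). AP1 (Aa_G283230) missed the threshold in DESeq2 (adjusted p = 0.0983), as did AP3 (0.115), Aa_G383480 (0.442) and Aa_G743960 (0.522). In a fit of the 6 libraries alone AP1 (adjusted p = 0.0771), PI (0.104), AP3 (0.321) and Aa_G743960 (0.121) missed it. The AP3 call was also lost when any stage 3 library or stage 4 replicate 2 or 3 was left out (adjusted p 0.0678 to 0.122), and both SEP2 calls without any of the stage 3 libraries (0.0597 to 0.113). Aa_G383480 also lost its call without stage 4 replicate 3 (0.0666).

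Of the 10 tested genes of floral meristem and organ identity, 8 rose and 1 fell, against 5.14% and 4.04% of all genes. Their median change was 4.87, or 4.47 with the genes at 0 counts held at their bound, beside -0.005 over all genes. The filter kept genes with enough counts in some group of libraries. Members at or near 0 at stage 3 could therefore be tested only through another group, such as stage 4, and low members were left out. The count of rising members and the median depend in part on this filter. CRC (Aa_G690520), a carpel and nectary gene named after its values were seen, was the other member that rose, from a mean of 5.64 to 18.1 CPM (1.66 ± 0.42, adjusted p = 0.0187). UFO (Aa_G355720), an F-box partner of LFY, fell from 55, 53.5 and 59.8 to 39.7, 33.5 and 45.5 CPM (-0.50 ± 0.14, adjusted p = 0.0227). The UFO call was lost without stage 3 replicate 1 (adjusted p = 0.0607), stage 3 replicate 3 (0.0695), stage 4 replicate 1 (0.0556) or stage 4 replicate 2 (0.123). The tested member that did not pass was SHP2 (Aa_G199980), a gene of the developing fruit, at means of 0.316 and 0.271 CPM, and SEP3, SHP1 and STK were too low to be tested. The number of rising members was 5 without stage 3 replicate 1, 5 without replicate 2 and 4 without replicate 3, 4 in DESeq2 and 2 in a fit of the 6 libraries alone. Their summed level was 76.5 to 88.3 CPM in the stage 3 libraries and 219, 254 and 411 CPM in the stage 4 libraries.

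The integrators and genes of the SPL family, taken by description and not by dependence on age, moved in both directions. Of 18 tested members, 7 rose and 4 fell, against 5.14% and 4.04% of all genes, and the median change was 0.07. FUL (Aa_G862480, described as AGL8, coding length 213 bp), a MADS-box gene that promotes the reproductive phase, went from 9.51, 7.58 and 25.9 to 45.5, 40.6 and 44.1 CPM (1.62 ± 0.36, adjusted p = 0.0168). SOC1 (Aa_G15970) went from 8.5, 12.2 and 13.3 to 19.8, 21.6 and 17.8 CPM (0.81 ± 0.18, adjusted p = 0.00611). SPL4 (Aa_G381970), a microRNA-controlled factor of the age pathway, went from 17.3, 8.65 and 51.1 to 73.2, 65 and 71.9 CPM (1.47 ± 0.44, adjusted p = 0.0499). In all of these the stage 3 libraries were spread and replicate 3 was the highest of them, while the stage 4 libraries lay close together and above. FUL lost its call without stage 3 replicate 1 (adjusted p = 0.0725) or stage 4 replicate 3 (0.0506) and SOC1 without stage 3 replicate 1 (0.0505). With only the 6 libraries compared FUL missed the threshold (0.144) and so did SPL4 (0.287). SPL4 lost its call without any of 5 libraries, all but stage 3 replicate 3 (0.0954 to 0.177), and in DESeq2 (0.0667).

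A gene described as SPL8 (Aa_G106150) rose from 39.5, 26.1 and 38.6 to 105, 120 and 127 CPM (1.76 ± 0.33, adjusted p = 0.00316). An SPL10 gene (Aa_G61880) rose from a mean of 41.1 to 83.7 CPM (1.03 ± 0.17), and its neighbour on chromosome 1 described as SPL11 (Aa_G61890) rose by 0.33 ± 0.07. Such close relatives can share reads. Another SPL gene (Aa_G345840) fell from 63.5, 50.3 and 77 to 48, 36.1 and 31.1 CPM (-0.72 ± 0.20, adjusted p = 0.026), and it had changed by 2.33 from stage 2 to stage 3. Its call was lost without stage 3 replicate 1 or 3 or stage 4 replicate 2 or 3 (adjusted p 0.0737 to 0.12) and with only the 6 libraries compared (0.133). The MADS-box gene AGL14 (Aa_G225530) fell from a mean of 2.42 to 0.91 CPM (-1.43 ± 0.36), and its call was lost without stage 3 replicate 1 or 2 or stage 4 replicate 1 or 3 (0.0633 to 0.0819). AGL42 (Aa_G131050) stood at 16.8 ± 2.9 CPM (SD, n = 3) and 18.1 ± 1.61, a difference of 0.11 ± 0.17 that missed the threshold (adjusted p = 0.751). Another gene described as SPL4 (Aa_G438780) stood at means of 0.144 and 0.916 CPM and also missed it (adjusted p = 0.221). The flowering signal FT was described for 4 genes, with 3 counts or fewer each over all 6 libraries. The count of rising members was 3 without stage 3 replicate 1 and 4 without stage 4 replicate 3, and of falling members 1 or 2 in each of the 6 fits with a library left out.

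Repressors of flowering fell in part. Of 22 tested members, 9 fell, against 4.04% of all genes, the other 13 did not pass the test, and the median change was -0.25. A gene described as MAF3 (Aa_G585310, chromosome 8, 48290033 to 48293812) fell from 17.4, 22.2 and 7.86 to 0.927, 1.7 and 0.221 CPM (-4.06 ± 0.53, adjusted p = 0.000169). A nearby gene of the same description (Aa_G720620, 48261624 to 48265703) fell from 38.7, 38.6 and 34.3 to 9.81, 12.6 and 7.39 CPM (-1.91 ± 0.14, adjusted p = 1.44e-07). These have the same description and the same coding length of 588 bp and may share reads, so the split of reads between them is uncertain. Their sequences were not compared. In both, every stage 4 library lay below every stage 3 library, which for Aa_G585310 the rule for naming the largest falls required.

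FLC (Aa_G579940, coding length 180 bp), the main vernalization-silenced repressor of Arabidopsis, was low already at stage 3 and went from 3.34, 2.79 and 1.41 to 1.27, 1.1 and 0.827 CPM (-1.24 ± 0.27, adjusted p = 0.00612). Its larger drop was the preceding step, from a mean of 16.4 CPM at stage 2 to 2.51 at stage 3 (-2.67). The FLC call was lost without stage 3 replicate 1 (adjusted p = 0.0652) and with only the 6 libraries compared (0.0505). SVP (Aa_G311490), a MADS-box repressor that acts with FLC, fell from 228, 219 and 201 to 165, 155 and 145 CPM (-0.48 ± 0.09, adjusted p = 0.00222), after means of 224, 223 and 216 CPM at stages 1 to 3. Genes described as RAP2-7, which is TOE1, an AP2-type repressor targeted by a microRNA, fell too, Aa_G207710 from 13.7, 13.4 and 12.2 to 5.87, 7.36 and 5.35 CPM (-1.09 ± 0.13) and Aa_G158280 by 0.97 on the log2 scale. The other falling members, named after their values were seen, were another TOE1 gene (Aa_G234670, -0.85 ± 0.16), another MAF3 gene (Aa_G476870, -0.71 ± 0.16) and AP2. AP2 itself (Aa_G575880) fell from a mean of 118 to 79.1 CPM (-0.57 ± 0.11). The activators of FLC, FRI (Aa_G153090) and the 4 FRI-like genes, had changes between -0.17 and 0.11 that missed the threshold. TFL1 (Aa_G63210), a repressor of AP1 and LFY, had 0 counts at stage 3 and 2 at stage 4 and was not tested.

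Vernalization and Polycomb genes act in the silencing of FLC in Arabidopsis. Among 15 tested, 1 rose, against 5.14% of all genes, and the other 14 did not pass the test. The one that rose is described as VRN5/VIN3-like (Aa_G307430) and went from 2.67, 3.86 and 6.45 to 10.5, 9.34 and 9.38 CPM (1.19 ± 0.28, adjusted p = 0.00948), after a change of 2.61 from stage 2 to stage 3. Its call was lost without stage 3 replicate 1 (adjusted p = 0.0714). The gene described as VIN3-like (Aa_G183140) stood at 42.1 and 43.9 CPM (0.06 ± 0.07, adjusted p = 0.66). Outside the naming rule, the Polycomb methyltransferase gene CLF (Aa_G253080) differed by -0.01 ± 0.06.

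**Figure D1:**
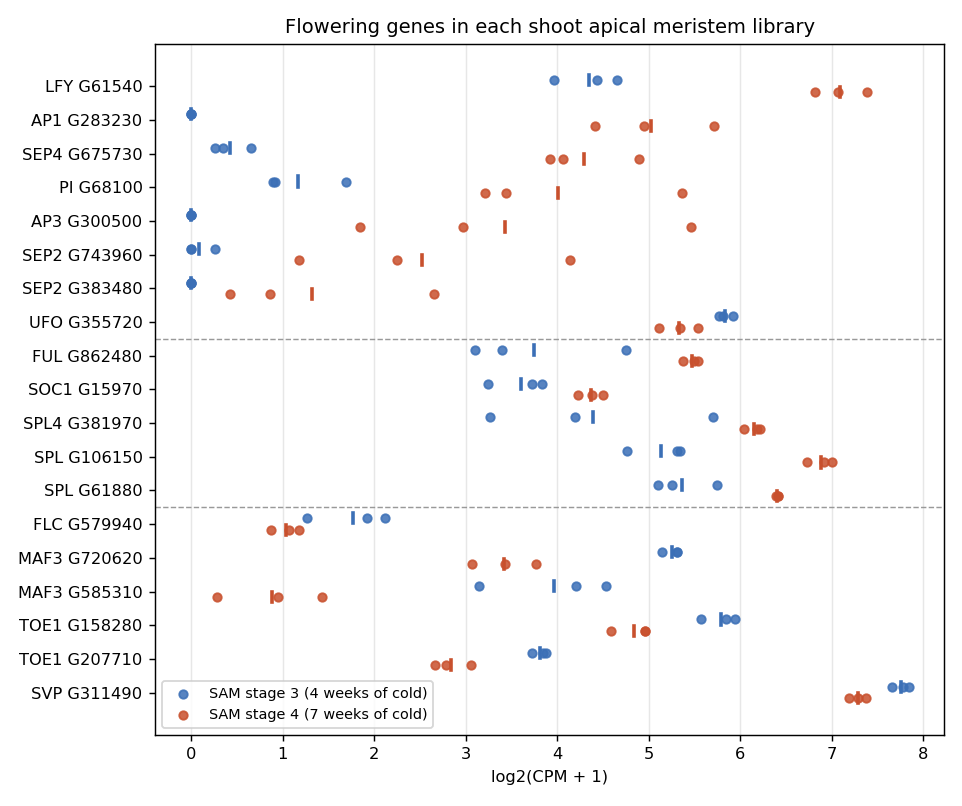
Level of flowering genes in each of the 6 SAM libraries, as log2(CPM + 1). Points are libraries, short bars the mean of 3, and dashed lines separate floral identity genes, integrators and SPL genes, and repressors. AP1 and AP3 sit at 0 in all 3 stage 3 libraries, and both MAF3 genes are lower in all 3 stage 4 libraries.

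Several genes outside the flowering lists also went from near 0 to clear expression between 4 and 7 weeks of cold. A gene of the B3 transcription factor family (Aa_G20370, chromosome 3, 11656380 to 11658061) went from 0.111, 0.0665 and 0.579 to 22.5, 39.8 and 93.1 CPM (7.80 ± 0.73, adjusted p = 4.65e-05). A gene described only as DNA binding protein (Aa_G92080) had 2 counts at stage 3 and stood at 11.8, 12.6 and 17.9 CPM at stage 4, a ratio of 311 with an interval of 85.8 to 2572 (adjusted p = 1.89e-06). A delta tonoplast intrinsic protein gene (Aa_G219720), a water channel of the vacuole membrane, had 0 counts at stage 3 and 2.59, 2.42 and 1.27 CPM at stage 4, at least 31.4-fold higher (adjusted p = 0.00394). This water channel had stood at 0.495 and 0.542 CPM at stages 1 and 2. A jacalin lectin gene (Aa_G602140) went from 2 to 124 counts, a ratio of 44.9 (interval 12.2 to 375), and its call was lost without stage 3 replicate 1 (adjusted p = 0.0564).

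Some large rises rested on 1 library. A NAC transcription factor gene (Aa_G173480) stood at 0.541, 7.91 and 0.607 CPM at stage 4 after 1 count at stage 3, and its adjusted p of 0.00813 went to 0.0524 without stage 4 replicate 2 and 0.0517 without stage 3 replicate 1. A flavonol sulfotransferase-like gene (Aa_G672340) stood at 0.193, 22.7 and 0.331 CPM, and its adjusted p went from 0.0373 to 0.605 without stage 4 replicate 2. An IAA-amino acid hydrolase gene (Aa_G44160), whose product frees auxin from its conjugates, stood at 0.541, 21.3 and 1.27 CPM, with an adjusted p of 0.0407 that went to 0.403 without the same library. In these 3 genes stage 4 replicate 2 stood far above the other libraries. The other stage 4 values still lay above stage 3, as the rule for naming the largest rises required. The sulfotransferase and hydrolase calls were also lost without any 1 of the stage 3 libraries (adjusted p 0.082 to 0.149). Among all 1100 genes that rose, 1 library held over 80% of the summed stage 4 level for 12 genes, 10 of them in replicate 2 and 2 in replicate 3.

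Of the 12 genes with the largest falls, all but a cytochrome P450 gene had a lower mean at stage 3 than at stage 2. A gene described as the AP2-like factor BBM (Aa_G192860, chromosome 8, 13957170 to 13960372), known in Arabidopsis as BABY BOOM for promoting embryo formation, fell from 15.3, 19.3 and 7.94 to 0.695, 0.439 and 0.331 CPM (-4.79 ± 0.41, adjusted p = 3.05e-06). Its means at stages 1 to 3 were 26, 51 and 14.2 CPM. A gene for phenylalanine ammonia-lyase (PAL, Aa_G338680), the entry enzyme of phenylpropanoid synthesis, fell from 17.5, 32.3 and 9.02 to 0.618, 1.76 and 1.21 CPM (-4.11 ± 0.45, adjusted p = 3.54e-05), after a mean of 192 CPM at stage 2. In both genes stage 3 replicate 3 was the lowest of its group. It still lay above every stage 4 library, as the rule for naming the largest falls required. The other tested PAL genes had higher means and missed the threshold. Aa_G570390 stood at 43 and 47.2 CPM (adjusted p = 0.711) and Aa_G14280 at 30.8 and 22 CPM (0.145).

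A gibberellin 2-oxidase (GA2OX, Aa_G418770), which inactivates gibberellin, fell from 9.23, 12.1 and 4.72 to 1.27, 1.1 and 1.21 CPM (-2.86 ± 0.35, adjusted p = 5.78e-05). KNATM (Aa_G777300), a KNOX-type protein without a homeodomain that binds meristem homeodomain proteins in Arabidopsis, fell from 6.84, 6.32 and 2.65 to 1.16, 0.714 and 0.552 CPM (-2.67 ± 0.41, adjusted p = 0.000452). An aminocyclopropane carboxylate oxidase (ACO, Aa_G230160), which makes ethylene, fell from 15.2, 17.8 and 11.9 to 3.09, 2.75 and 1.49 CPM (-2.59 ± 0.30, adjusted p = 3.51e-05). An AAA-type ATPase gene (Aa_G106560) fell from 99.7, 82.9 and 50.3 to 9.42, 12.3 and 9.32 CPM (-2.92 ± 0.27, adjusted p = 9.02e-06). In each of these genes every stage 4 library lay below every stage 3 library, as the rule for naming the largest falls required. Another ACO gene (Aa_G104240) rose (1.75 ± 0.39, adjusted p = 0.00664).

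Others among the 12 largest falls were genes for an L-ascorbate oxidase (Aa_G381660, -3.07 ± 0.42), an XH/XS domain protein (Aa_G435570, -2.98 ± 0.34), an 11-beta-hydroxysteroid dehydrogenase-like protein (Aa_G313090, -2.90 ± 0.38) and a ribonuclease P subunit (Aa_G233440, -3.50 ± 0.53). A cytochrome P450 gene (Aa_G340190) fell from 2.28, 6.79 and 1.24 to 0.0772, 0.275 and 0.552 CPM, and its adjusted p of 0.0177 went to 0.106 without stage 3 replicate 2, 0.0733 without stage 4 replicate 1 and 0.068 without stage 4 replicate 2.

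**Figure D2:**
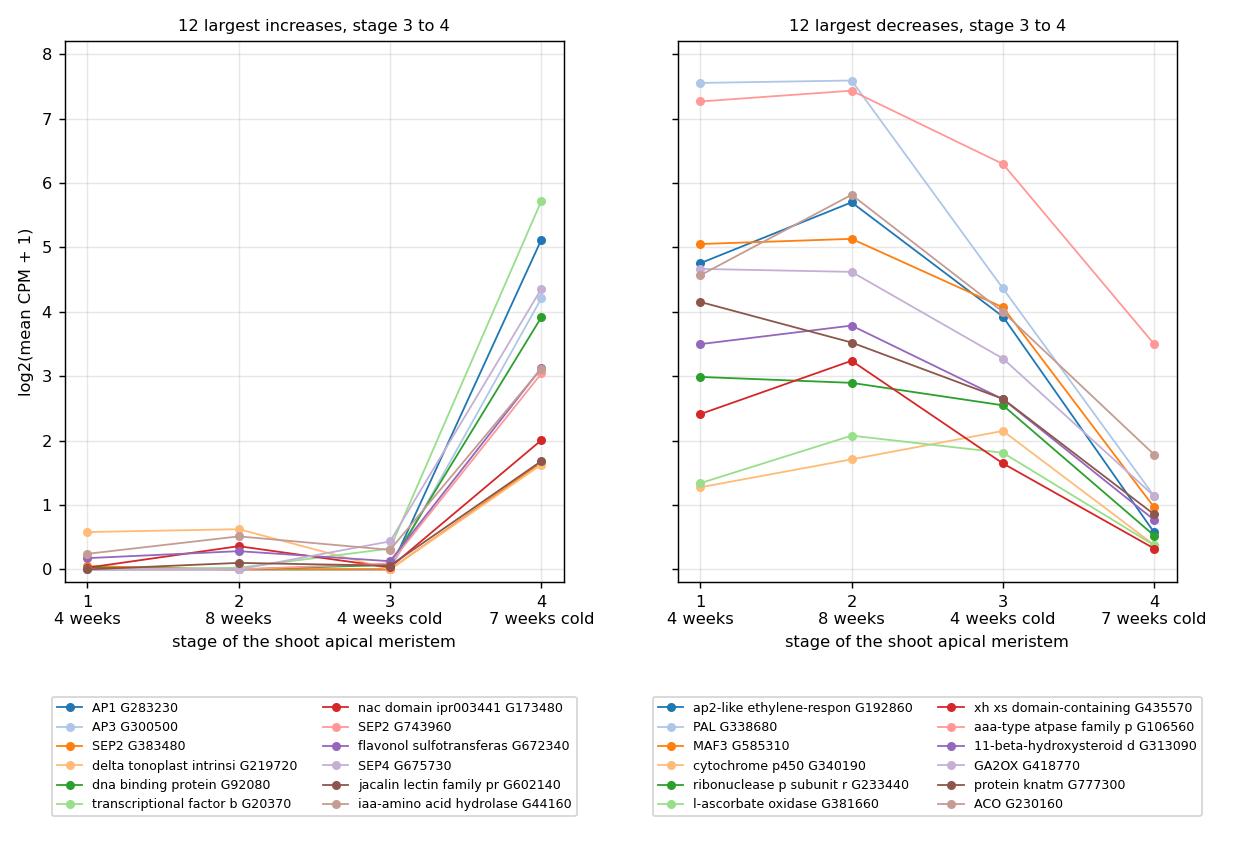
Mean level of the 12 genes with the largest rise and the 12 with the largest fall from stage 3 to stage 4, over the 4 stages of the SAM, as log2(mean CPM + 1) of 3 libraries. The genes on the left lie below 1 CPM at stages 1 to 3, while all but the cytochrome P450 gene on the right have a lower mean at stage 3 than at stage 2.

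Among the genes that define the meristem, WUS rose. STM (Aa_G408930), the homeobox gene that keeps meristem cells undifferentiated, was present in every library, at 133, 153 and 206 CPM at stage 3 and 214, 203 and 212 at stage 4, and its difference of 0.35 ± 0.12 missed the threshold (adjusted p = 0.0568). WUS (Aa_G197460), which maintains the stem cells, went from 1.61, 2.39 and 4.47 to 6.1, 6.43 and 6.51 CPM (1.20 ± 0.32, adjusted p = 0.0219). The WUS call was lost without stage 3 replicate 1 (adjusted p = 0.129), stage 3 replicate 2 (0.0929), stage 4 replicate 2 (0.0557) or stage 4 replicate 3 (0.0628). CLV3 (Aa_G155810), the stem cell peptide that restrains WUS, lay near 0 in all 6 libraries, with 14 counts at stage 3 and 25 at stage 4. KNAT1 (Aa_G90040) stood at means of 178 and 154 CPM, so of the defining markers of the labelled tissue STM, KNAT1 and WUS were present at stage 4 and CLV3 was near 0.

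Of 26 tested meristem maintenance genes, 5 rose and 3 fell (median change 0.14), against 5.14% and 4.04% of all genes. CORYNE (CRN, Aa_G19540), a receptor-like kinase of CLV3 signalling, rose from 45.6, 42.4 and 48.8 to 60.6, 56.6 and 63.4 CPM (0.40 ± 0.07, adjusted p = 0.000859), and a WOX13-like homeobox gene (Aa_G426430) rose by 0.60 ± 0.13. ATH1 (Aa_G58550), a BELL-type homeobox gene of the vegetative shoot, fell from 80, 79.6 and 58.1 to 41.4, 44.5 and 47.7 CPM (-0.71 ± 0.12, adjusted p = 0.000548), after means of 177 and 167 CPM at stages 1 and 2. A BEL1 homeobox gene (Aa_G198480) fell by 1.12 ± 0.16 and a CLV1-described receptor kinase gene (Aa_G702580) by 0.52 ± 0.11 (adjusted p = 0.00634). The CLV1 call was lost with only the 6 libraries compared (adjusted p = 0.0689). The number of rising members was 2 without any 1 of stage 3 replicates 1 and 2 and stage 4 replicates 2 and 3. In the boundary list, where 8 genes were tested, a gene described as MYB117, which is LOF1, rose (Aa_G347600, from 2.33, 1.73 and 3.31 to 8.61, 7.09 and 7.5 CPM, 1.67 ± 0.37) and another of that description fell (Aa_G254960, from 46, 49.2 and 40.5 to 22, 19.9 and 18.9 CPM, -1.16 ± 0.13).

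Of 62 tested auxin genes, 11 rose and 4 fell, against 5.14% and 4.04% of all genes, with a median change of 0.10. ARF5 (Aa_G329270), known as MONOPTEROS, a response factor needed to start primordia, rose from 369, 343 and 409 to 674, 657 and 741 CPM (0.88 ± 0.11, adjusted p = 2.39e-05). A PIN-type auxin efflux carrier gene (Aa_G111050) rose from 6, 4.79 and 5.71 to 17.3, 15.3 and 21.6 CPM (1.71 ± 0.24, adjusted p = 9.53e-05). A GH3 gene (Aa_G432960), whose product conjugates auxin to amino acids, fell from 363, 403 and 399 to 135, 152 and 131 CPM (-1.48 ± 0.17, adjusted p = 2.72e-05), while another (Aa_G288640) rose by 0.95 ± 0.19. In each of these genes the libraries of the stages did not overlap. Of 15 tested genes of the ARF family, 5 rose and 1 fell. The count of rising auxin genes was 5 without stage 3 replicate 1, 7 without stage 4 replicate 2 and 7 without stage 4 replicate 3, and that of falling genes was 2 without stage 3 replicate 2. Of 31 small auxin-induced SAUR genes, 1 fell and the rest did not pass the test.

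Of 32 cytokinin genes, 2 rose and 4 fell, where 5.14% and 4.04% of all genes did. A LOG gene (Aa_G414840), whose product makes active cytokinin, rose from 3.34, 4.12 and 4.47 to 11.2, 11.1 and 9.87 CPM (1.44 ± 0.16, adjusted p = 1.2e-05). The receptor gene AHK4 (Aa_G312320) fell from 139, 139 and 128 to 97.3, 95.2 and 104 CPM (-0.45 ± 0.07, adjusted p = 0.000406). Cytokinin oxidase CKX7 (Aa_G9070), which degrades the hormone, fell by 0.64 ± 0.10, and the response regulator ARR6 (Aa_G406250), a negative feedback gene, by 1.53 ± 0.28.

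Of 26 gibberellin genes, 3 rose and 2 fell, where the shares over all genes were 5.14% and 4.04%. A gibberellin 20-oxidase (GA20OX, Aa_G91000), a biosynthetic enzyme, had 0 counts at stage 3 and 0.618, 0.824 and 2.54 CPM at stage 4, at least 19.9-fold higher (adjusted p = 0.00312). A second GA2OX gene (Aa_G655020) went up, opposite to Aa_G418770, from 14.3, 16.4 and 24.5 to 32.7, 33.1 and 31.9 CPM (0.84 ± 0.24, adjusted p = 0.0373). Its call was lost without any 1 library other than stage 3 replicate 3 (adjusted p 0.076 to 0.16). The number of rising gibberellin genes was 1 without stage 3 replicate 2, stage 4 replicate 2 or stage 4 replicate 3, and that of falling genes 1 without stage 3 replicate 2, stage 4 replicate 1 or stage 4 replicate 3. Of 24 abscisic acid genes, 3 fell, among them the receptor gene PYL8 (Aa_G94220, from 12.6, 13.4 and 10.2 to 5.29, 5.49 and 3.97 CPM, -1.30 ± 0.16, adjusted p = 2.95e-05). Of 58 ethylene and jasmonate genes, 3 rose (8 in DESeq2), including a JAZ repressor gene (Aa_G176870, 1.06 ± 0.23), and 1 fell. Among them were 18 tested ACO genes, of which 1 rose and 1 fell, with a median change of 0.21.

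Of 46 tested cold acclimation genes, 7 rose, against 5.14% of all genes, the other 39 did not pass the test, and the median change was 0.21. A LEA gene (Aa_G386370), of a family that protects cells during drying, rose from 1.61, 4.72 and 4.72 to 13.6, 26 and 13.2 CPM (2.30 ± 0.37, adjusted p = 0.00107, or 0.064 with only the 6 libraries compared). ERD7 (Aa_G249600), a dehydration-induced gene, rose from 56.5, 65.4 and 73.8 CPM to 84.1 CPM or more in every stage 4 library (0.63 ± 0.15, adjusted p = 0.0121), and its call was lost without stage 3 replicate 1 (0.0739) or stage 4 replicate 2 (0.0615). A galactinol synthase gene (GOLS, Aa_G394720), the first enzyme of raffinose synthesis, went from 4 to 59 counts (3.37 ± 0.88, adjusted p = 0.0276). The GOLS call was lost without stage 3 replicate 1 or 3 or stage 4 replicate 2 or 3 (0.0714 to 0.115). The number of rising members was 2 without stage 3 replicate 1, 3 without stage 3 replicate 2, 1 without stage 4 replicate 2, 4 without stage 4 replicate 3 and 3 in a fit of the 6 libraries alone.

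Of 49 sugar and starch genes, 5 rose and 1 fell, against 5.14% and 4.04% of all genes, and the rises were 3 without stage 3 replicate 2 and 8 in DESeq2. The gene that fell, a sucrose synthase gene (SUS, Aa_G252740), lost its call without any 1 library other than stage 3 replicate 3 (adjusted p 0.0536 to 0.142). Sucrose phosphate synthase (SPS, Aa_G642610), which makes sucrose, rose from 76.1, 77.4 and 88 to 104, 113 and 122 CPM (0.49 ± 0.09, adjusted p = 0.00195).

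Of 36 tested small RNA and DNA methylation genes, 3 rose and 3 fell, against 5.14% and 4.04% of all genes. A gene described as ARGONAUTE 4 (Aa_G444240), of a family that binds small RNAs, rose from 1.17, 0.2 and 1.82 to 8.53, 9.94 and 28.6 CPM (3.91 ± 0.56, adjusted p = 0.000259, or 0.0732 with only the 6 libraries compared). The most abundant gene of that description (Aa_G90650) stood at means of 1052 and 1165 CPM and missed the threshold (adjusted p = 0.286). DCL2 (Aa_G267870), which cuts double-stranded RNA into small RNAs, rose from 86.8, 82.7 and 113 to 179, 185 and 195 CPM (0.99 ± 0.16, adjusted p = 0.000873). An RNA-dependent RNA polymerase gene (RDR, Aa_G64250) fell from 158, 189 and 111 to 35.6, 29.7 and 25.9 CPM (-2.33 ± 0.24, adjusted p = 1.64e-05), after a mean of 462 CPM at stage 2. Its neighbour of the same description (Aa_G64260) changed by -0.49 ± 0.13, and reads may be shared between the copies. That call was lost without stage 4 replicate 3 (adjusted p = 0.072), which left 1 falling member.

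Among cell wall genes, 10 rose and 6 fell, which was 13.7% of those tested against 9.18% of all genes (median change 0.09), and DESeq2 called 16 higher. Of 33 tested genes listed as pectin methylesterases, 6 rose and 2 fell, and 1 of those that rose (Aa_G189750, named after its values were seen, 1.69 ± 0.45) is described as pectinesterase inhibitor-like. A pectin methylesterase inhibitor gene (PMEI, Aa_G62610) rose from 5.06, 2.99 and 6.37 to 12, 15.7 and 26.6 CPM (1.92 ± 0.35, adjusted p = 0.00161, or 0.0537 with only the 6 libraries compared). A xyloglucan endotransglucosylase gene (XTH, Aa_G116410), which remodels the wall, fell from 267, 320 and 314 to 172, 202 and 147 CPM (-0.79 ± 0.12, adjusted p = 0.000273). Of 53 phenylpropanoid and flavonoid genes, 3 rose and 3 fell, where 5.14% and 4.04% of all genes did. The 3 falls became 1 without stage 3 replicate 1, and the 3 rises became 5 without stage 4 replicate 3. Leucoanthocyanidin dioxygenase (LDOX, Aa_G19930), of anthocyanin synthesis, rose from 0.334, 0.333 and 0.496 to 2.28, 1.54 and 2.48 CPM (2.44 ± 0.43, adjusted p = 0.0011), while the PAL gene Aa_G338680 fell.

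Genes of growth and of heat shock were called in at most 8% of each list, against 9.18% of all genes. Of 79 DNA replication genes 2 fell, of 59 mitosis and cyclin genes 3 fell, and of 25 histone genes 1 rose and 1 fell. Of 173 cytosolic ribosomal protein genes 1 rose and 5 fell, and of 82 heat shock genes 3 rose and 3 fell. With only the 6 libraries compared, 3 ribosomal protein genes rose and 11 fell. These few calls also changed when libraries were left out. Without stage 3 replicate 1 the falls in DNA replication genes went to 0, in ribosomal protein genes to 2 and the rises in heat shock genes to 1. Without stage 3 replicate 2 the falls were 1 in DNA replication, 1 in ribosomal protein and 0 in heat shock genes, and without stage 3 replicate 3 the heat shock falls were 1. Without stage 4 replicate 1 the falls were 1 in DNA replication and 1 in heat shock genes. Without stage 4 replicate 2 they were 0 in DNA replication, 2 in ribosomal protein and 0 in heat shock genes, and without stage 4 replicate 3 they were 0, 1 and 0. The histone rise was lost without stage 4 replicate 3 and the histone fall without stage 3 replicate 1 or 2 or stage 4 replicate 2 or 3. The CDK inhibitor gene KRP3 (Aa_G138980), which restrains the cell cycle, fell from 42.6, 41.6 and 40 to 27.1, 27.4 and 26.6 CPM (-0.62 ± 0.09, adjusted p = 0.00011), and a D3-type cyclin gene (Aa_G97330) by 0.41 ± 0.09, with its call lost without stage 3 replicate 2 (0.0503) or stage 4 replicate 2 (0.0574). Of 13 circadian clock genes, edgeR called 0 and DESeq2 1. An unadjusted p under 0.05 was seen for 4 of them, beside 5065 of all 21414 genes.

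Markers of other cells that the dissected apex could hold were also read. Of 25 tested epidermis and wax genes, 7 rose, against 5.14% of all genes, and the other 18 did not pass the test (median change 0.43, or 0.37 with genes at 0 counts held at their bound). Their summed level was 3601 to 4270 CPM at stage 3 and 5009 to 5461 at stage 4, so the groups did not overlap. ATML1 (Aa_G257080), which defines the outermost cell layer, rose from 96.5, 110 and 82.1 to 131, 135 and 142 CPM (0.50 ± 0.11, adjusted p = 0.00673). A 3-ketoacyl-CoA synthase gene (KCS, Aa_G110400), of wax synthesis, rose from 8.95, 12.4 and 9.35 to 28.7, 26.3 and 34 CPM (1.53 ± 0.18, adjusted p = 2.54e-05). The part of these epidermal cells in the other results was not tested. The number of rising members was 4 without stage 4 replicate 2 or 3.

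Of 40 photosynthesis genes, 6 fell, against 4.04% of all genes (median change -0.16), or 3 without stage 4 replicate 3, and their summed levels overlapped, at 9647 to 13313 CPM at stage 3 and 9391 to 12133 at stage 4. The light-harvesting gene CP29 (Aa_G53980) fell from 835, 850 and 1007 to 602, 678 and 550 CPM (-0.56 ± 0.09, adjusted p = 0.000371). Among 15 vascular, 7 trichome, 3 stomatal and 8 pollen genes, edgeR called 0. At an unadjusted p under 0.05 there were 5 vascular, 1 trichome, 0 stomatal and 0 pollen genes, beside 5065 of all 21414 genes. DESeq2 called 1, 0, 0 and 0 genes of these lists.

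**Figure D3:**
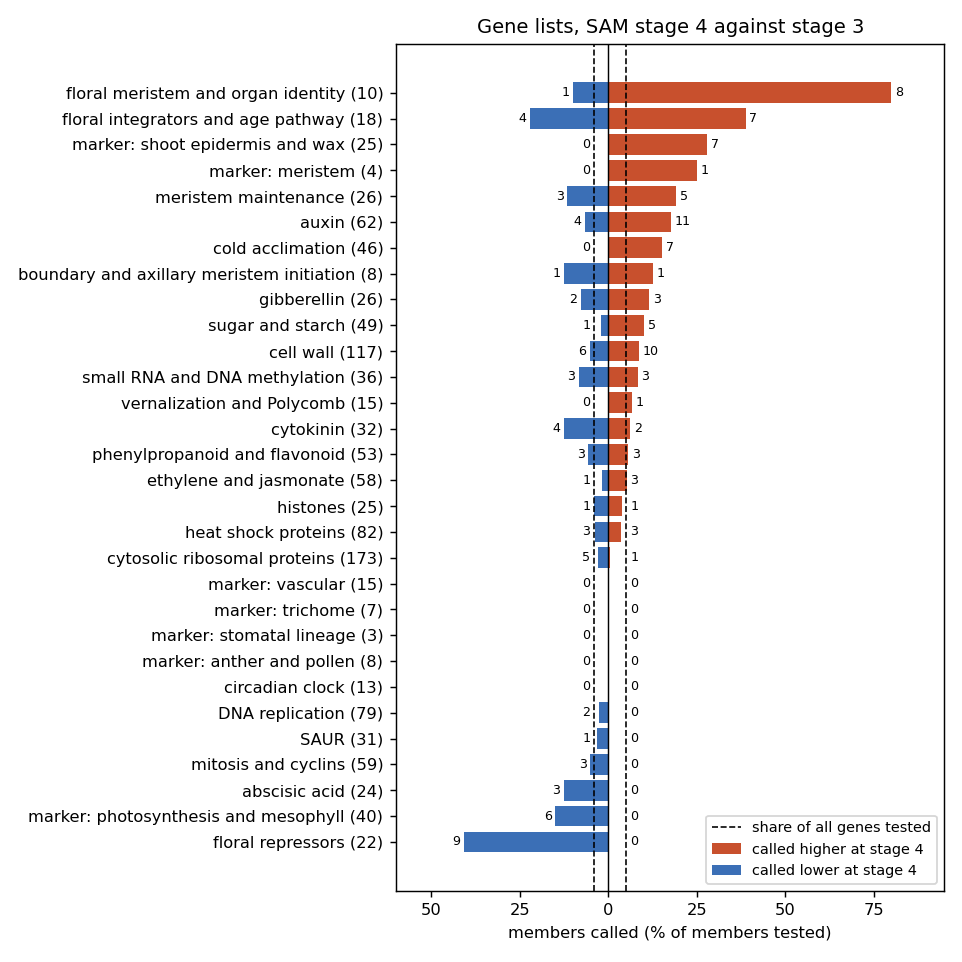
Share of the tested members of each gene list called higher (right) or lower (left) at stage 4 than at stage 3 in the SAM, in percent, with the number of calls at each bar and the number tested in brackets. Dashed lines mark the shares over all 21414 genes, 5.14% higher and 4.04% lower. The floral identity list reaches farthest to the right and the floral repressors farthest to the left.

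The same weeks of cold in axillary buds, which share no library with the SAM, moved far more genes, and the difference between the steps was tested as an interaction. It passed the threshold for 6389 genes (29.8%), among them 931 (47.4%) of the 1965 genes called in the SAM. The interaction includes the SAM step, so genes called for that step can pass it more readily, and these shares are not comparable. On log2(TPM + 1) values the interaction split was 2295 higher and 3775 lower in the bud step, against 3149 and 3240 in edgeR. Of the genes called in the SAM, 883 were also called in the same direction in the buds, which is 44.9% of the SAM calls and 8.72% of the bud calls. A further 343 were called in the opposite direction (17.5% and 3.39%). Over all 21414 genes tested, the bud step called 10121 (47.3%), 4932 higher and 5189 lower. Part of both overlaps is therefore set by the large number of bud calls. Whether either overlap differs from what that number alone would give was not tested.

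LFY (Aa_G61540) went in the buds from a mean of 2.11 to 37 CPM, a change of 4.13 against 2.78 in the SAM, with an interaction of 1.35 (adjusted p = 0.00144 in edgeR). FUL (Aa_G862480), at 0.225 CPM in stage 3 buds and 35.6 at stage 4, had an interaction of 5.63 (adjusted p = 0.000308), and SPL4 (Aa_G381970), at 0.203 and 39.5 CPM, one of 6.09 (adjusted p = 0.000494). At stage 4 the mean of each was lower in the buds than in the SAM, a difference that was not tested. AP1 (Aa_G283230) had 0 counts at stage 3 in both tissues and reached 1.74 CPM in the buds against 33.8 in the SAM, so its steps could not be compared. SEP4 (Aa_G675730) reached 3.48 CPM in the buds against 19.5, and its interaction missed the threshold (adjusted p = 0.17). MAF3 (Aa_G585310) had changes of -4.29 in buds and -4.06 in the SAM, and the interaction of -0.23 missed the threshold (adjusted p = 0.871).

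Opposite changes were seen in a SHI-related gene (Aa_G526710), of a family of zinc-finger factors that regulate auxin synthesis. It rose from 0.278, 0.266 and 0.331 to 5.29, 5.71 and 9.43 CPM in the SAM (4.52 ± 0.45, adjusted p = 6.56e-06) and fell from a mean of 20.1 to 1.44 CPM in the buds (-3.79). The interaction was -8.30 (adjusted p = 1.01e-07). The other genes with the smallest interaction p were a pectinesterase (Aa_G127790, -3.70), an NHL repeat gene (Aa_G189610, -1.74), an LRR receptor kinase (Aa_G753790, -1.60) and an endonuclease family gene (Aa_G13100, -4.20), and each rose in the SAM and fell in the buds. The SAM rise of the endonuclease family gene lost its call without stage 3 replicate 2 (adjusted p = 0.0588) or stage 4 replicate 2 (0.0581). The LEA gene Aa_G386370 fell in the buds from 222 to 72.1 CPM, and the GA2OX gene Aa_G655020 from 135 to 40.2, while both rose in the SAM. In the other direction, UFO (Aa_G355720) and the SPL gene Aa_G345840 fell in the SAM and rose in the buds, by 0.81 and 2.17. The BBM gene (Aa_G192860) fell by 4.79 in the SAM, while in buds it stood at 0.765 and 0.34 CPM (interaction 3.64, adjusted p = 0.00853).

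**Figure D4:**
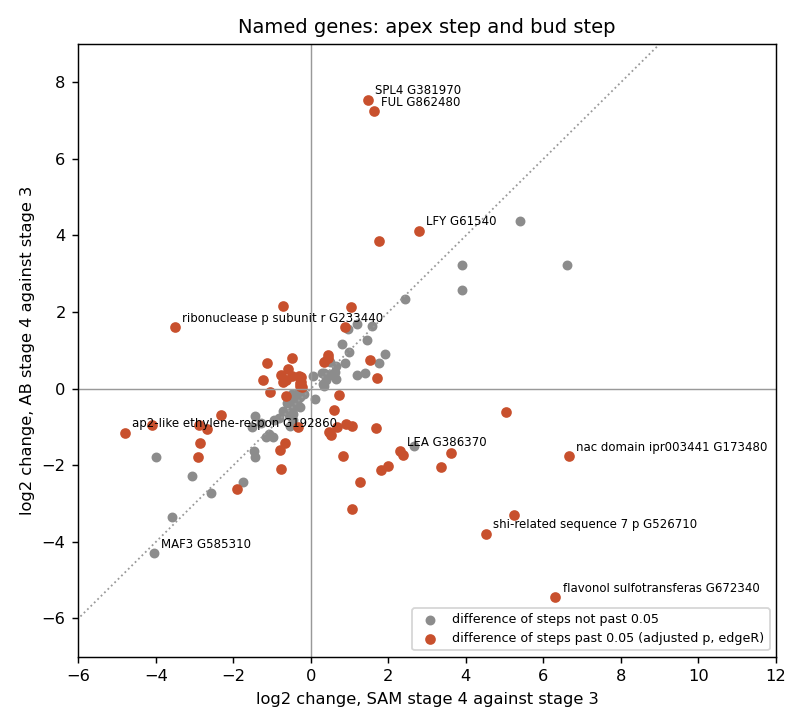
Log2 change from stage 3 to stage 4 in the SAM (horizontal) and in axillary buds (vertical) for 131 named genes, leaving out 9 with 0 counts in a group. Orange points are the 63 whose steps differ at an adjusted p under 0.05, and the dotted line marks equal changes. SPL4 and FUL lie above the line and the SHI-related and sulfotransferase genes far below it.

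The authors' deposited table gives 1619 genes at a false discovery rate of 0.05 for this comparison, 1086 higher and 533 lower. Of these, 1360 were also called here, which is 84.0% of that list and 69.2% of the 1965, and all 1360 had the same sign. For LFY (Aa_G61540) the authors' deposited table gives a log2 change of 2.80 and for MAF3 (Aa_G585310) one of -4.03.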

How the data were processed

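The deposited table holds, per the file headers, the count of total mapped reads for each gene and library, which is the unit tested here. The authors also deposited TPM values, used as an alternative, and, for their own comparisons, log2 changes with p-values as a false discovery rate, used only beside the counts of calls. Another 46 columns of values by library were not used. Gene positions come from the deposited annotation, whose models were moved from version 4 to version 5 by protein alignment, per the file headers. The submitters' processing notes name FastQC. How reads were aligned, counted and assigned to strands is not given in the sources used here, so overlapping genes on opposite strands cannot be told apart. Lengths are coding lengths, as 99.5% are multiples of 3.

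Tests used edgeR 4.0.16 (R 4.3.3) with TMM scaling. The filterByExpr filter, applied by group with at least 10 counts and a total of 15, kept 21414 genes. All 23 libraries entered 1 robust quasi-likelihood fit in which every combination of tissue and stage had its own coefficient. Its two-sided p-values were adjusted over all genes kept, with a threshold of 0.05. The interaction is the AB step minus the SAM step. Total counts per SAM library of stages 3 and 4 ran from 12.2 to 26.2 megareads. Folds from 0 counts are bounds computed with a group floor of 3 counts, and floors and exact binomial 95% intervals of count ratios cover counting error only. The fits were tested on simulated data. Replicates of SAM stage 3 and of SAM stage 4 differed by more than sampling noise, and those of the other groups were not checked.

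The 30 gene lists, 7 of them markers, were paired with genes by the descriptions in the files and kept to models placed at 1 locus. The comparison, the members and the lists were chosen with earlier results of these data known. Genes were named by a rule: the 12 largest rises and 12 largest falls among called and described genes with a mean of at least 2 CPM in the higher group and no overlap of libraries, up to 4 called members of each list in each direction by p, a set of flowering and meristem genes whatever their values, and the 5 genes with the smallest interaction p. From the lists, only some of the genes named by this rule are printed, and these are not always those with the smallest p. Alternatives were RLE scaling, DESeq2 1.42.0, no filter or a stricter one, only the libraries compared, a replicate block, limma 3.58.1 on log2(TPM + 1) or log2(TPM + 0.1), single-locus genes, an absolute log2 change of at least 1, and each library left out in turn.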

Additional observations from a re-analysis of the deposited data

Results flagged for a closer look

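The step from stage 3 to stage 4 differed between the buds and the SAM for 64 of the 140 named genes. The test was the interaction in edgeR at an adjusted p under 0.05, which 6389 of all 21414 genes (29.8%) passed. Some genes were named for their small interaction p and many others for their SAM step, which is part of the interaction. The share among the named genes is therefore partly set by the naming rule and is not comparable with that over all genes. The values below are log2, the bud step minus the SAM step.

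Among the genes that rose in the SAM and had a fitted change of the opposite sign in the buds, the values were Aa_G173480 -8.41, Aa_G672340 -11.76, Aa_G44160 -5.66, Aa_G347600 (LOF1) -2.69, Aa_G34830 (PL) -1.82, Aa_G127790 (PME) -3.70, Aa_G386370 (LEA) -3.93, Aa_G394720 (GOLS) -5.41, Aa_G176870 (JAZ) -2.04, Aa_G96590 (LOX) -1.67, Aa_G163570 (GID1) -0.90, Aa_G655020 (GA2OX) -2.59, Aa_G165060 (HSP) -3.94, Aa_G404800 (HSP) -4.0, Aa_G426430 (WOX13-like) -1.15, Aa_G541370 (F3'H) -5.28, Aa_G464250 (LDOX) -8.55, Aa_G303450 (SUS) -4.11, Aa_G526710 -8.30, Aa_G189610 -1.74, Aa_G753790 -1.60 and Aa_G13100 -4.20.

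Among the genes that rose in the SAM and had a fitted change of the same sign in the buds, the values were Aa_G329270 (ARF) 0.71, Aa_G111050 (PIN) -1.42, Aa_G305810 (ARF) 0.36, Aa_G61880 (SPL) 1.09, Aa_G106150 (SPL) 2.09, Aa_G61890 (SPL) 0.37, Aa_G61540 (LFY) 1.35, Aa_G91000 (GA20OX) -6.87, Aa_G33840 (H2A) 0.45, Aa_G110400 (KCS) -0.77, Aa_G862480 (FUL) 5.63 and Aa_G381970 (SPL4) 6.09.

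Among the genes that fell in the SAM and had a fitted change of the opposite sign in the buds, the values were Aa_G233440 5.11, Aa_G95360 (RFC) 0.54, Aa_G9070 (CKX) 0.87, Aa_G640460 (RPS) 0.36, Aa_G5490 (RPS) 0.42, Aa_G483330 (RPS) 0.26, Aa_G345840 (SPL) 2.89, Aa_G355720 (UFO) 1.31, Aa_G316180 (HSP) 0.62, Aa_G148410 (HSF) 0.91, Aa_G173620 (H2A) 0.44, Aa_G198480 (BEL1-like) 1.81, Aa_G178810 (KRP) 1.12, Aa_G64260 (RDR) 0.83, Aa_G252740 (SUS) 1.10 and Aa_G579940 (FLC) 1.47.

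Among the genes that fell in the SAM and had a fitted change of the same sign in the buds, the values were Aa_G192860 3.64, Aa_G338680 (PAL) 3.15, Aa_G106560 1.13, Aa_G313090 1.94, Aa_G418770 (GA2OX) 1.43, Aa_G777300 1.60, Aa_G208750 (IAA) 0.46, Aa_G116410 (XTH) -0.80, Aa_G273140 (CKX) -0.75, Aa_G311120 (RPL) 0.96, Aa_G349460 (SPL) -0.65, Aa_G720620 (MAF3) -0.72, Aa_G644340 (GASA) -1.32 and Aa_G64250 (RDR) 1.65.

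Some of these genes had few counts in a group, and the fitted values of GA20OX (Aa_G91000), with 0 counts at SAM stage 3, depend on the small count added in the fit. The flavonol sulfotransferase-like gene (Aa_G672340), the IAA-amino acid hydrolase gene (Aa_G44160), the NAC gene (Aa_G173480) and a leucoanthocyanidin dioxygenase-like gene (Aa_G464250) had most of their summed SAM stage 4 level in replicate 2.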

How the results depend on the processing

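The 1965 calls between SAM stage 4 and stage 3 were 1941 with RLE scaling, 1758 with no filter, 1928 with a stricter filter, 2424 in DESeq2, 1950 with only the libraries compared and 1987 over single-locus genes. With an absolute log2 change of at least 1 they were 679. Leaving out 1 library at a time gave 1054 to 1847 calls, with 1054 and 1149 without stage 3 replicates 1 and 2, and 1206 and 1100 without stage 4 replicates 2 and 3. The 6389 interaction calls ranged from 4811 to 6786 with 1 library left out. Of the 135 named genes called, 69 kept their call under every alternative that tested them and 56 lost it when some library was left out. With only the libraries compared 22 lost it, and 20 with the replicate block on those libraries. None of the alternatives reversed the direction of a named gene that was called in the main fit or in that alternative. Sign changes of genes called in neither were not counted. STM, which missed the threshold, passed it under 7 alternatives.

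Libraries with the same replicate number did not deviate together in every pair, with correlations across genes of -0.012, 0.198 and -0.008 for replicates 1, 2 and 3. The value for replicate 2 was the highest of any pair, and not every library correlated best with its own number. With a replicate block the SAM calls were 2041, or 1744 with only the libraries compared, and the interaction calls 6346 and 6130. The block gave 5199 calls for SAM stage 3 against stage 2 (5196 without it) and 10119 for the bud step (10121 without it).

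Depth was lowest in stage 3 replicate 3, at 12.2 megareads, and the genes at 0 counts in stage 3 are bounded only by the floor of 3 counts. The cause of the changed counts was not tested.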

Other observations

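Genes sharing a description were also counted, as families chosen after their sizes were seen. Of 82 tested cytochrome P450 genes, enzymes that oxidise hormones, pigments and defence compounds, 11 rose and 4 fell (18.3% called, median change 0.25), against 9.18% of all genes. Of 391 pentatricopeptide repeat genes, whose products process organelle RNA, 3 rose and 7 fell (2.56% called, median -0.03). Of 123 TIR-NBS-LRR resistance genes, 3 rose and 6 fell (7.32%). These counts are descriptions, and the members of a family can share reads.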
